A study of Mus musculus with 4 samples.

Results

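The genes of the proteasome were followed in RAW264.7 cells, a mouse macrophage line, grown with or without CT26 cells, a mouse colon carcinoma line. Members were all symbols of the form Psma, Psmb, Psmc, Psmd or Psme followed by a number that stood once in each of the 2 deposited tables, which gave 43 of the 22554 genes shared by the tables. Of these, 42 reached at least 1 FPKM (fragments counted for each kilobase of a gene, relative to all fragments of the library) in at least 2 libraries and were tested among 10202 genes. The thymus-specific subunit gene Psmb11 was the 1 member below that filter, listed at 0 FPKM in 3 libraries and at 0.038 FPKM in coculture 2. The study holds 4 messenger RNA libraries, 2 of RAW264.7 cells labelled mock and 2 of RAW264.7 cells labelled ct26 coculture, and all 4 libraries come from that 1 cell line with no genetic change named. The libraries numbered 1 make up pair 1 and those numbered 2 pair 2, and each pair was deposited as a separate table. RAW264.7 cells were kept in DMEM and CT26 cells in RPMI1640, per the labels. The sources used here do not give the length or medium of the coculture or the way macrophages and tumour cells were separated.

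The proteasome is the main protease of the cytosol and nucleus and degrades proteins tagged with ubiquitin. Its 20S core is a barrel of alpha and beta rings, in which the beta subunits Psmb5, Psmb6 and Psmb7 carry the catalytic sites, and its 19S cap recognises, unfolds and feeds in the substrate. In cells exposed to interferon gamma, and constitutively in many blood-derived cells including macrophages, the catalytic subunits Psmb8, Psmb9 and Psmb10 replace Psmb5, Psmb6 and Psmb7 to form the immunoproteasome, which favours peptides that bind MHC class I. The PA28 cap of Psme1 and Psme2 is induced by the same signals.

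The libraries held an estimated 12200000 to 16200000 reads. Macrophage markers summed to 5466 to 12828 FPKM per library, with 9 of the 10 at 1 FPKM or more in some library and Mertk at most 0.028 FPKM. The 6 epithelial markers summed to 0 to 0.143 FPKM and the 6 mesenchymal markers to 0.028 to 0.623 FPKM, with Epcam, Krt18 and Col3a1 at 0 in all 4 libraries, so defining markers of the other cell types that CT26 cells could bring were at or near 0 in mock and coculture alike. The 4 lymphoid markers summed to at most 0.047 FPKM. The 4 granulocyte markers summed to 0.162 to 2.5 FPKM, all from S100a8. In bulk RNA, fewer cells of a type and less RNA per cell cannot be told apart.

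No proteasome gene passed the test. In limma with the pair as a block, 0 of the 42 members were higher and 0 lower at a Benjamini-Hochberg adjusted p under 0.05, against 0.127% higher and 0% lower over all tested genes. The lowest adjusted p of a member was 0.2. At an unadjusted p under 0.05, 3 members were higher (Psmd10, Psmb5 and Psmd8) and 0 lower, against 5.26% higher and 9.45% lower over all tested genes, so the 3 members, 7.14% of the 42, stand close to the background. That count was 6 with no filter or after median centring, and 1 with no trended variance or no pair block. The shares of all tested genes under those settings are not given here, and 5.26% is the share in the main fit only. Median centring also raised the count of all genes called higher at the adjusted threshold from 13 to 85. Every difference below is the coculture value less the mock value in log2(FPKM + 1), with limma's standard error after the ± sign; that error is moderated by the spread of other genes and rests on 2 pairs. FPKM of a pair are given as mock, then coculture.

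The members leaned the other way from the rest of the transcriptome, by small amounts, except that median centring left little lean in the rest. Of the 42, 29 (69%) were higher in coculture in both pairs, against 21.5% of all tested genes, and 2 (4.76%), Psmb10 and Psmd9, were lower in both, against 42.2%. The median difference of the members was 0.16 in pair 1, 0.12 in pair 2 and 0.13 over both, while the median of all tested genes was -0.09, -0.06 and -0.07. No member differed 2-fold in both pairs, which 1.37% of all tested genes did. The size of the shift depends on scaling: the median over the members was 0.078 after rescaling to a common total, 0.051 after quantile normalization and 0.20 after median centring, above 0 in each. After rescaling 23 members were higher in both pairs, against 16% of all tested genes, and after quantile normalization 20 were, against 25.9%. After median centring 29 were, against 30.2%, and 1 was lower in both pairs, against 32.2%. The median of all tested genes was then -0.0063. Members are transcripts measured in the same 4 libraries and are not independent of each other.

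**Figure D1:**
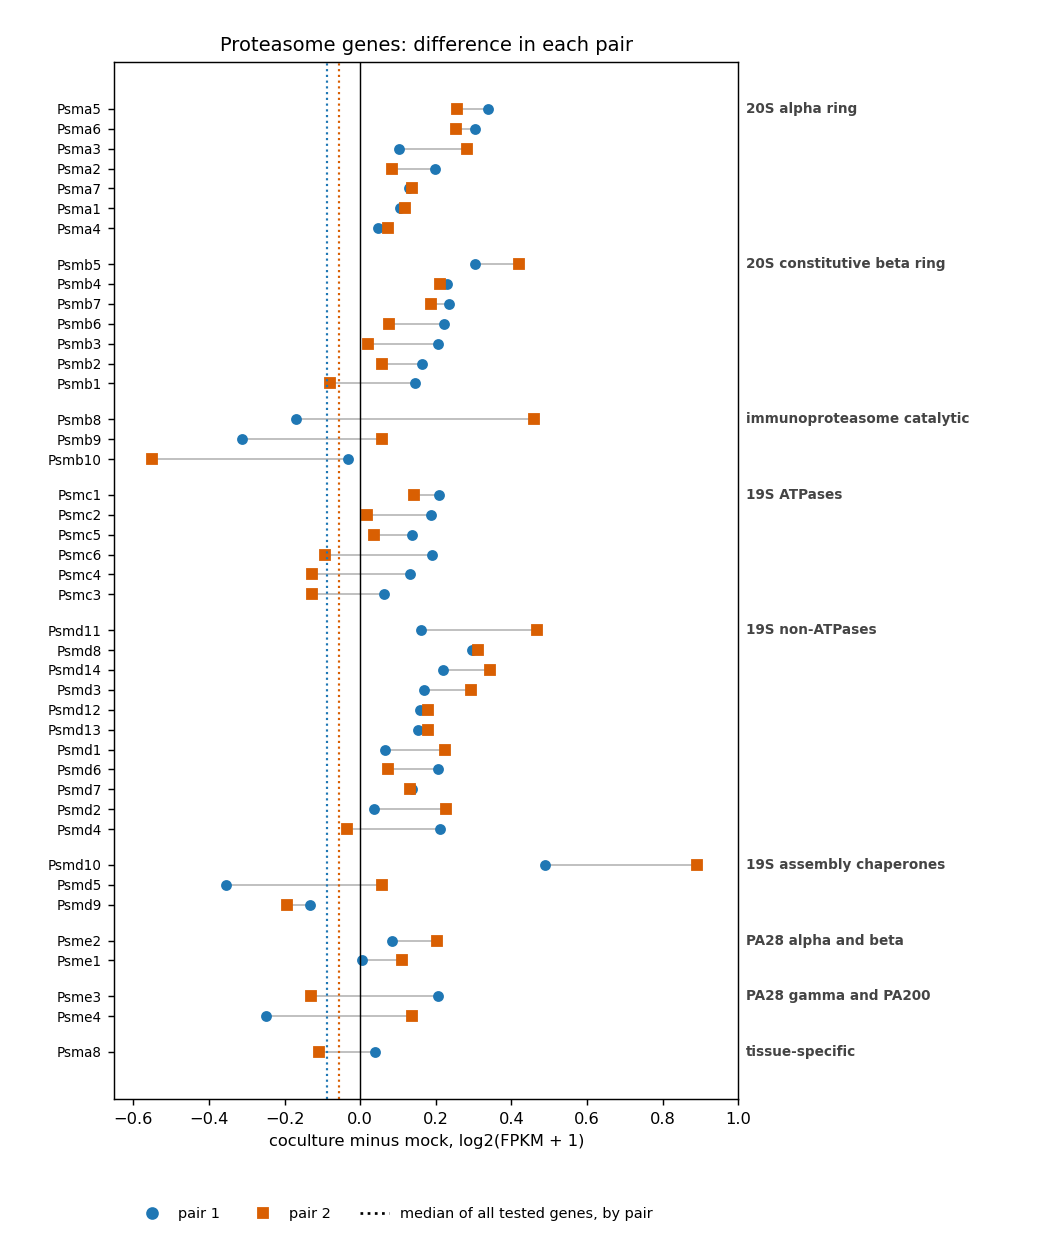
Difference between coculture and mock (log2(FPKM + 1), horizontal axis) for the 42 tested proteasome genes, grouped by role, with pair 1 as circles, pair 2 as squares and dotted lines at the median of all tested genes in each pair. Most 20S and 19S genes sit right of 0 in both pairs, the 3 catalytic immunoproteasome genes sit left of 0 in pair 1, and Psmd10 lies farthest right at 0.49 and 0.89.

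The 31 constitutive subunits of the 20S core and 19S cap held most of the members that were higher. All 31 were higher in coculture 1 than in mock 1 (29 after rescaling to a common total and 25 after quantile normalization), and 26 of them were also higher in pair 2; the share of all tested genes that were higher was 37.4% in pair 1 and 41.6% in pair 2. Their median difference was 0.17 in pair 1, 0.14 in pair 2 and 0.14 over both, and with 1 library left out it ranged from 0.017 (without coculture 1) to 0.30 (without coculture 2). The number higher in both pairs was 21 after rescaling to a common total, 18 after quantile normalization and 26 after median centring. None of the 31 was lower in both pairs, except 1 after quantile normalization. Together the 14 constitutive 20S genes made up 0.573% of the FPKM of mock 1 and 0.628% of coculture 1, and 0.506% of mock 2 and 0.532% of coculture 2.

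The alpha ring, whose subunits gate the entry to the barrel, was higher in both pairs for all 7 of Psma1 to Psma7, except that in pair 1 Psma4 was lower after rescaling, and Psma1, Psma4 and Psma7 after quantile normalization. Psma5 had the largest mean difference of the ring: it stood at 23.4 FPKM in mock 1 against 29.8 FPKM in coculture 1, and at 28.3 FPKM in mock 2 against 34.0 FPKM in coculture 2. Its difference was 0.30 ± 0.12 (limma adjusted p = 0.354), and both coculture libraries lay above both mock libraries. Psma6 was next at 0.28 ± 0.11 (limma adjusted p = 0.362), with 177 then 219 FPKM in pair 1 and 150.5 then 180 FPKM in pair 2. The other 5 members of the ring had mean differences from 0.06 for Psma4 to 0.19 for Psma3, and the median of the ring was 0.14.

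In the constitutive beta ring 6 of 7 genes were higher in both pairs, with medians of 0.22 and 0.08 in pairs 1 and 2, except that Psmb3 was lower in pair 2 after rescaling or quantile normalization. Psmb5, which encodes the chymotrypsin-like catalytic subunit, had the largest mean difference of the constitutive subunits, although Psma5 was higher in pair 1 (0.34) and Psmd11 in pair 2 (0.47). It stood at 57.3 FPKM in mock 1 against 70.9 FPKM in coculture 1, and at 37.0 FPKM in mock 2 against 49.8 FPKM in coculture 2. The coculture library was higher by 23.8% in pair 1 and by 34.8% in pair 2, but mock 1 lay above coculture 2, so the groups overlapped across the tables. Its difference was 0.36 ± 0.11 (limma adjusted p = 0.293), and with 1 library left out, across the tables, from 0.053 (without mock 2) to 0.67 (without mock 1).

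Psmb6, the caspase-like subunit, stood at 153 then 179 FPKM in pair 1 and 139 then 146 FPKM in pair 2, a difference of 0.15 ± 0.12 (limma adjusted p = 0.589). Psmb7, the trypsin-like subunit, stood at 205 then 241 FPKM in pair 1 and 177 then 201 FPKM in pair 2, a difference of 0.21 ± 0.11 (limma adjusted p = 0.457). Both were thus higher in coculture within each pair, by less than Psmb5 in mean. Psmb4, a structural beta subunit and the member with the highest FPKM in all 4 libraries, stood at 388 then 455 FPKM in pair 1 and 264 then 305 FPKM in pair 2 (difference 0.22 ± 0.12, limma adjusted p = 0.466). Psmb1, another structural subunit, was the only constitutive beta gene whose pairs disagreed, at 0.15 in pair 1 and -0.08 in pair 2.

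All 3 catalytic immunoproteasome genes were lower in coculture in pair 1, except that Psmb10 was higher after median centring or quantile normalization. In pair 2 Psmb8 and Psmb9 were higher and Psmb10 lower, and the medians were -0.17 and 0.06 in pairs 1 and 2. Over all tested genes, 6381 of 10202 were lower in pair 1 and 4240 were higher in pair 2. Psmb8, the inducible partner of Psmb5, stood at 57.0 FPKM in mock 1 against 50.5 FPKM in coculture 1, and at 38.4 FPKM in mock 2 against 53.1 FPKM in coculture 2. The pair differences were -0.17 and 0.46, so the mean of 0.14 ± 0.19 (limma adjusted p = 0.748) stands for neither pair. Psmb9, the inducible partner of Psmb6, stood at 20.2 then 16.1 FPKM in pair 1 and 13.2 then 13.8 FPKM in pair 2, or -0.31 and 0.06 (mean -0.13 ± 0.16, limma adjusted p = 0.734). These opposite signs of Psmb8 and Psmb9 were the same after rescaling, median centring and quantile normalization. For Psmb9 the sign in pair 2 rests on small values: 0.011 after rescaling, 0.088 after centring and 0.11 after quantile normalization.

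Psmb10, the inducible partner of Psmb7, was the member with the lowest mean difference. It stood at 25.1 FPKM in mock 1 against 24.6 FPKM in coculture 1, and at 22.1 FPKM in mock 2 against 14.7 FPKM in coculture 2. The change was -2.28% in pair 1 and -33.2% in pair 2, with a mean difference of -0.29 ± 0.17 (limma adjusted p = 0.498). Its pair 1 value of -0.03 became 0.07 after median centring and 0.01 after quantile normalization, and without coculture 2 its difference, then taken across the tables, was 0.058.

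**Figure D2:**
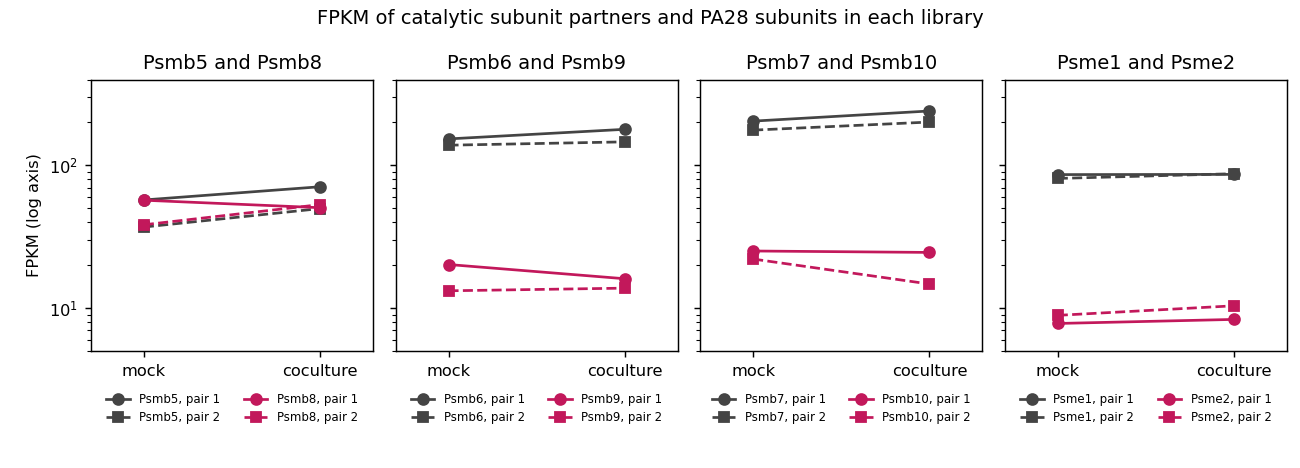
FPKM (log axis) of each constitutive catalytic gene (grey) with its inducible partner (red), and of Psme1 (grey) and Psme2 (red), in mock and coculture; circles with solid lines are pair 1 and squares with dashed lines pair 2. Psmb5, Psmb6 and Psmb7 are higher in coculture in both pairs, Psmb8 is lower in pair 1 and higher in pair 2, and Psmb10 is lower mainly in pair 2.

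A ratio of 2 genes within a library does not depend on that library's scaling. The ratio of Psmb8 to Psmb5 was 0.996 in mock 1 and 1.04 in mock 2, so both genes had about the same listed FPKM in mock. For Psmb5, 54.1% of its 50-base stretches also occur in other genes, and how reads from them were counted is unknown, so the ratio may not be that of the transcripts. The level of each ratio also rests on the gene lengths used for FPKM, which the sources used here do not give. In GENCODE M21 the exonic lengths are 3381 bases for Psmb8 against 899 for Psmb5. They are 3660 for Psmb9 against 1872 for Psmb6, and 1705 for Psmb10 against 3421 for Psmb7. In coculture the ratio of Psmb8 to Psmb5 was 0.713 in library 1 and 1.07 in library 2, a log2 change of -0.48 in pair 1 and 0.04 in pair 2. Psmb9 stood at a far lower share of Psmb6, with ratios of 0.132 and 0.0896 in pair 1 and 0.0953 and 0.0943 in pair 2. Psmb10 against Psmb7 went from 0.123 to 0.102 in pair 1 and from 0.125 to 0.0732 in pair 2, and was lower in coculture in both pairs, with log2 changes of -0.27 and -0.77.

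The summed inducible to constitutive ratio (Psmb8, Psmb9 and Psmb10 over Psmb5, Psmb6 and Psmb7) was 0.247 in mock 1 and 0.186 in coculture 1, and 0.209 in mock 2 and 0.205 in coculture 2. By listed FPKM, which rests on the gene lengths used, the inducible genes were thus the minority in all 4 libraries. The ratio in coculture was 0.753 times that of mock in pair 1 and 0.983 times in pair 2. Against the median of all 14 constitutive 20S genes in place of single partners, the log2 change was -0.36 and 0.34 for Psmb8, -0.52 and -0.07 for Psmb9 and -0.22 and -0.72 for Psmb10 in pairs 1 and 2. With 1 library per group and pair, these ratios carry no test.

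**Figure D3:**
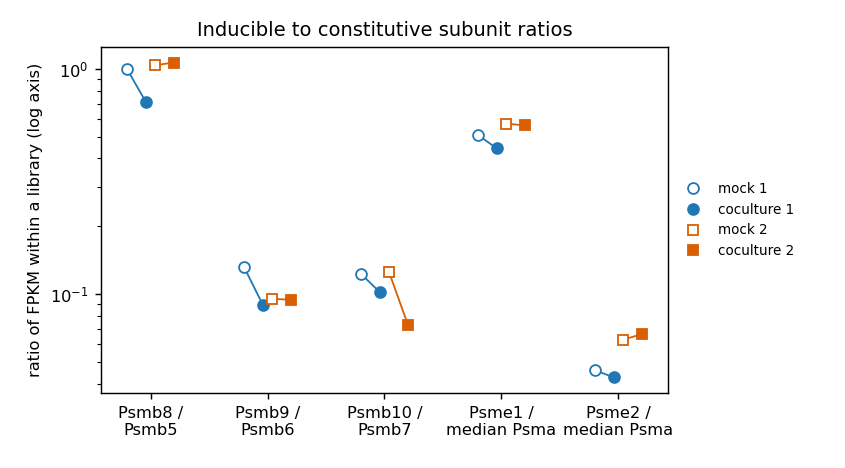
Ratio of each inducible gene to its constitutive counterpart within a library (log axis), with mock as open and coculture as filled symbols, pair 1 as circles and pair 2 as squares; Psme1 and Psme2 are set against the median of Psma1 to Psma7. The Psmb10 ratio is lower in coculture in both pairs, while the Psmb8 ratio is lower in coculture (0.713 against 0.996) in pair 1 and about level in pair 2.

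Promoter sequences are shown for the pair Psmb5 and Psmb8, which code for alternative subunits of 1 site, and for Psmb9, which shares its promoter with Tap1. Psmb5 and Psmb8 parted in pair 1, but so did Psmb6 and Psmb9 and, in the main fit, Psmb7 and Psmb10. Any part of the motifs in these differences was not tested. The sequences were taken from the RefSeq promoter table (GRCm38.p6), which matched 36 of the 43 members. Psma8, Psmb1, Psmb2, Psmb7, Psmc3, Psmd3 and Psmd7 had no entry. Capitals mark matches to the motifs searched. The sequences lie at chr14:54617996-54618115 (minus strand, 120 bases before the Psmb5 start), chr17:34198075-34198194 (plus strand, 120 bases before the Psmb8 start) and chr17:34187331-34187555 (minus strand, the 225 bases between the Psmb9 and Tap1 starts, which face away from each other).
Psmb5: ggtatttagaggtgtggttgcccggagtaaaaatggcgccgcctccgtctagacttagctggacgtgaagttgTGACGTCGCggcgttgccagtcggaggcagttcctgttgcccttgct
Psmb8: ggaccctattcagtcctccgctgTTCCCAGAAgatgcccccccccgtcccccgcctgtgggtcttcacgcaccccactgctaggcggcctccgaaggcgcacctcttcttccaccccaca
Psmb9: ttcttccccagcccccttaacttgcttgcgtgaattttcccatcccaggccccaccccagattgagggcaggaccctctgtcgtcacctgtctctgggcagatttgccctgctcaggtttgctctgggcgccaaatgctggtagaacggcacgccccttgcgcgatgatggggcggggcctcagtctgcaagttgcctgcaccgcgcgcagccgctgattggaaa

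A total of 4 motifs were searched on both strands of the 250 bases before each start. The antioxidant response element TGACNNNGC, bound by NRF1 and NRF2, occurred before 5 members (Psmb5, Psmb6, Psmc6, Psmd12 and Psmd9), or 12.8% of the 39 member promoters against 10.2% of the 32851 promoters of the table. The gamma-activated site TTCNNNGAA, an element of interferon gamma signalling, occurred before 1 member, Psmb8, or 2.56% against 7.02%. The interferon-stimulated response element, searched as 2 GAAA half-sites with 2 bases between, occurred before Psmb3, Psmd4 and Psmd9 (7.69% against 2.98%), and the NF-kappaB motif, searched as GGGA and CC with 4 bases between, before 9 members (23.1% against 17.6%). In the member promoters no match to one motif overlapped a match to another. In Psmb5 the response element lies 47 to 39 bases before the start, and in Psmb8 the gamma-activated site lies 97 to 89 bases before it. No match was found in the 250 bases before Psmb9, which says only that these letters are not in that window.

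Psme1 and Psme2 were higher in coculture in both pairs, by small amounts. Psme1, which encodes the alpha subunit of the PA28 activator, stood at 86.3 then 86.5 FPKM in pair 1 and 81.1 then 87.5 FPKM in pair 2 (0.06 ± 0.11, limma adjusted p = 0.837). Its pair 1 difference of 0.0047 turned to -0.05 after rescaling or quantile normalization. Psme2, the beta subunit, was listed at 7.80 then 8.33 FPKM in pair 1 and 8.89 then 10.4 FPKM in pair 2 (0.14 ± 0.15, limma adjusted p = 0.688), from an estimated 211 to 247 reads per library. That is the lowest level among the 42 tested members in each library, although Psme1 and Psme2 form 1 ring together.

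The Psme2 value is uncertain, because a near-identical copy, Psme2b on chromosome 11, shares most of its coding sequence. The GENCODE M21 coding sequences of both genes are 717 bases long and identical at 712 of them (99.3%), with a longest identical run of 311 bases. The 120 coding bases that hold the most differences (coding bases 424 to 543, counted from the start codon) are printed to show how few positions can part the copies, with the 3 differing bases in capitals.
Psme2: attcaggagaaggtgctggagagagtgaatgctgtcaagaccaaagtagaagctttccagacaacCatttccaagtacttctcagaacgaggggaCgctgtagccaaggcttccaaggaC
Psme2b: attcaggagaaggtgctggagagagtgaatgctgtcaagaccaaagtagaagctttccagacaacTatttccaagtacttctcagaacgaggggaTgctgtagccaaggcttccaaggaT
Of all 50-base stretches in protein-coding Psme2 transcripts, 54.9% also occur in Psme2b. The second table lists Psme2b at 57.4 FPKM in mock 2 against 100.7 FPKM in coculture 2, and the first table has no row of that name. The sources used here do not say how the authors counted reads that match both genes.

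Copies bear on other members too. Of the constitutive subunits, the 3 with the lowest mean level were Psma3, Psma5 and Psmb5, at 21.8, 28.9 and 53.7 FPKM, and 22.0%, 55.4% and 54.1% of their 50-base stretches occur in another gene, mostly in Gm13835, Gm8394 and Gm3375. Psmb3 has the highest such share, 55.8%, and yet averaged 115 FPKM. Among the 30 tested members with under 10% of such stretches, 17 were higher in both pairs and 2 lower. Over all 42 tested members 29 were higher in both pairs, and every member at 10% or more was among these 29. Over all tested genes, not screened for such stretches, 21.5% were higher and 42.2% lower in both pairs. In GENCODE M21, Psmb9 overlaps the neighbouring Tap1 on the opposite strand over 5.79% of its exonic bases. The RefSeq starts used for the promoters leave 225 bases between Psmb9 and Tap1, so the annotations differ there. In GENCODE M21, Psmb8 overlaps Gm20496 over 14.7% and Psmd9 overlaps Gm26745 over 25.5%. Psmb7, the gene that Psmb10 was set against, overlaps Nek6 on the opposite strand over 11.8% and shares 28.1% of its 50-base stretches with it. The sources used here do not say whether the counting kept strand. The part of these copies and overlaps in the differences was not tested.

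**Figure D4:**
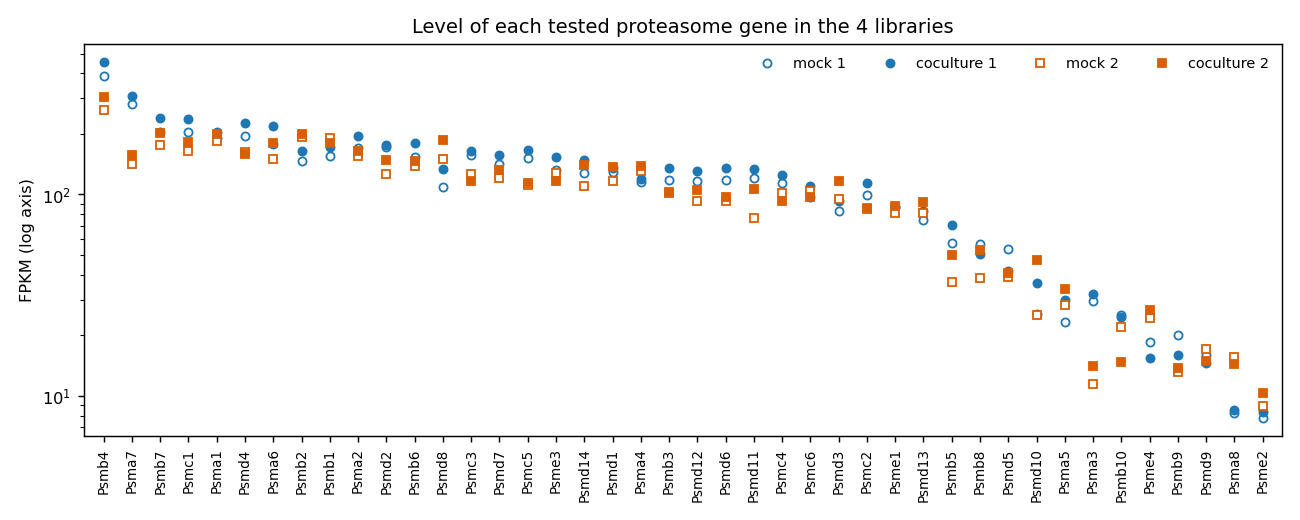
FPKM (log axis) of the 42 tested proteasome genes in the 4 libraries, ordered by mean level, with mock as open and coculture as filled symbols, pair 1 as circles and pair 2 as squares. Psmb4 is highest and Psme2 lowest in each library, and Psma3 and Psma7 differ more between the tables than between mock and coculture.

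Psma3, Psma5 and Psmb5 lay below all 17 constitutive 19S genes in each library. The 17 constitutive 19S genes ranged from 74.7 to 204 FPKM in mock 1 and from 76.6 to 165 FPKM in mock 2. Neighbours in the order of levels changed places between the tables: Psma7 stood at 281 FPKM in mock 1 (rank 2 of 43) and at 142 FPKM in mock 2 (rank 11), and Psma3 stood at 29.7 and 11.4 FPKM. The tables may have been normalized separately, which limits every statement across them, such as whether groups overlap or a value with 1 library left out. Psma8, the testis-specific alpha subunit gene, was listed at 8.27 then 8.52 FPKM in pair 1 and 15.7 then 14.4 FPKM in pair 2.

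In the 19S cap, the 6 ATPases that unfold the substrate were divided between the pairs. All 6 were higher in coculture in pair 1 (Psmc3 was lower after quantile normalization), and Psmc1, Psmc2 and Psmc5 were also higher in pair 2 (Psmc1 alone after rescaling or quantile normalization), where Psmc3, Psmc4 and Psmc6 were lower, with changes of -8.45%, -8.49% and -6.23%. The ATPase median was 0.16 in pair 1, -0.04 in pair 2 and 0.07 over both, or -0.0052 after quantile normalization. Psmc1 was the highest in mean difference, with 204 then 236 FPKM in pair 1 and 165 then 182 FPKM in pair 2 (0.18 ± 0.11, limma adjusted p = 0.530).

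Of the 11 non-ATPase subunits of the cap, 10 were higher in both pairs, with medians of 0.16 and 0.22, except that in pair 1 Psmd2 was lower after rescaling, and Psmd1 and Psmd2 after quantile normalization. Psmd11, a lid subunit that helps hold lid, base and core together, led them in mean difference: it stood at 120.3 then 134 FPKM in pair 1 and 76.6 then 106 FPKM in pair 2 (0.31 ± 0.13, limma adjusted p = 0.371). Psmd8, another lid subunit, was more even between the pairs, at 109 then 134 FPKM in pair 1 and 150.5 then 187 FPKM in pair 2 (0.30 ± 0.11, limma adjusted p = 0.331). Psmd14, the deubiquitinase that cuts ubiquitin from the substrate, stood at 128 then 149 FPKM in pair 1 and 110.5 then 140.5 FPKM in pair 2 (0.28 ± 0.11, limma adjusted p = 0.361). Psmd4, a ubiquitin receptor, was the 1 subunit whose pairs disagreed, with 0.21 in pair 1 and -0.04 in pair 2.

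The 3 assembly chaperones of the 19S base, which are not part of the finished particle, each took a different course. Psmd10, which encodes gankyrin, a chaperone that also binds the retinoblastoma protein and MDM2, had the largest difference of all members. It stood at 25.6 FPKM in mock 1 against 36.4 FPKM in coculture 1, and at 25.2 FPKM in mock 2 against 47.6 FPKM in coculture 2. Both coculture libraries lay above both mock libraries, and the excess was 41.9% in pair 1 and 88.6% in pair 2. The difference of 0.69 ± 0.15 did not pass (limma adjusted p = 0.200), and 96.0% of all tested genes had a lower mean difference. Psmd10 shares no 50-base stretch with another gene and overlaps no other exon in GENCODE M21, and its estimated reads were 578 and 867 in pair 1 and 584 and 855 in pair 2.

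Psmd9 was lower in both pairs, at 16.1 then 14.6 FPKM in pair 1 and 17.2 then 14.9 FPKM in pair 2 (-0.16 ± 0.13, limma adjusted p = 0.599). Psmd5 stood at 53.7 then 41.8 FPKM in pair 1 and 39.2 then 40.8 FPKM in pair 2, or -22.2% and 4.22%. The median of these 3 chaperones was -0.15, which does not describe Psmd10. Psme3, the nuclear PA28 gamma, and Psme4, the PA200 activator, also went opposite ways in the pairs: 0.21 and -0.13 for Psme3, -0.25 and 0.14 for Psme4.

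The split of Psmb8 between the pairs, and the weaker one of Psmb9 (-0.31 and 0.06), stood beside a split in part of the related genes. Of the tested interferon regulators 4 of 6, and of the class I loading genes 4 of 8, were lower in pair 1 and higher in pair 2. Of 6 tested interferon regulators (Socs1 was below the filter), 0 passed the test, all 6 were lower in coculture in pair 1, and 4 were higher in pair 2, with medians of -0.44 and 0.40. Of the 10202 tested genes, 6381 were lower in pair 1 and 4240 higher in pair 2. Being lower in pair 1 and higher in pair 2 was the course of 4 of the 42 members (Psmb8, Psmb9, Psmd5 and Psme4), or 9.52%, against 20.1% of all tested genes. Irf7 stood at 19.4 then 17.1 FPKM in pair 1 and 1.13 then 44.4 FPKM in pair 2. Irf7, a regulator of the type I interferon response, thus differed far more in pair 2 than in pair 1, which was not tested (mean difference 2.12 ± 1.10, limma adjusted p = 0.44). Without mock 2, the Psmb8 difference was -0.14 across the tables.

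Irf1, which drives immunoproteasome genes in the interferon gamma response, was lower in both pairs, at 3.16 then 1.71 FPKM in pair 1 and 4.87 then 3.65 FPKM in pair 2 (-0.48 ± 0.19, limma adjusted p = 0.354). Irf8, a myeloid factor of the same family, was also lower in both, with differences of -0.40 and -0.47 (mean -0.43 ± 0.12, limma adjusted p = 0.266). Of 8 class I loading genes 0 passed, 4 were lower in pair 1 and higher in pair 2, and the medians were -0.02 and 0.20. Tap1, the peptide transporter gene that runs away from Psmb9 on the other side of their promoter, stood at 10.4 then 7.96 FPKM in pair 1 and 7.07 then 12.5 FPKM in pair 2 (-0.34 and 0.74, limma adjusted p = 0.779). Erap1, an aminopeptidase that trims peptides, was lower in both pairs (-0.30 ± 0.12, limma adjusted p = 0.360), and B2m, the class I light chain, was higher in both (0.16 ± 0.13, limma adjusted p = 0.612). The part of the interferon genes in the Psmb8 and Psmb9 values was not tested.

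**Figure D5:**
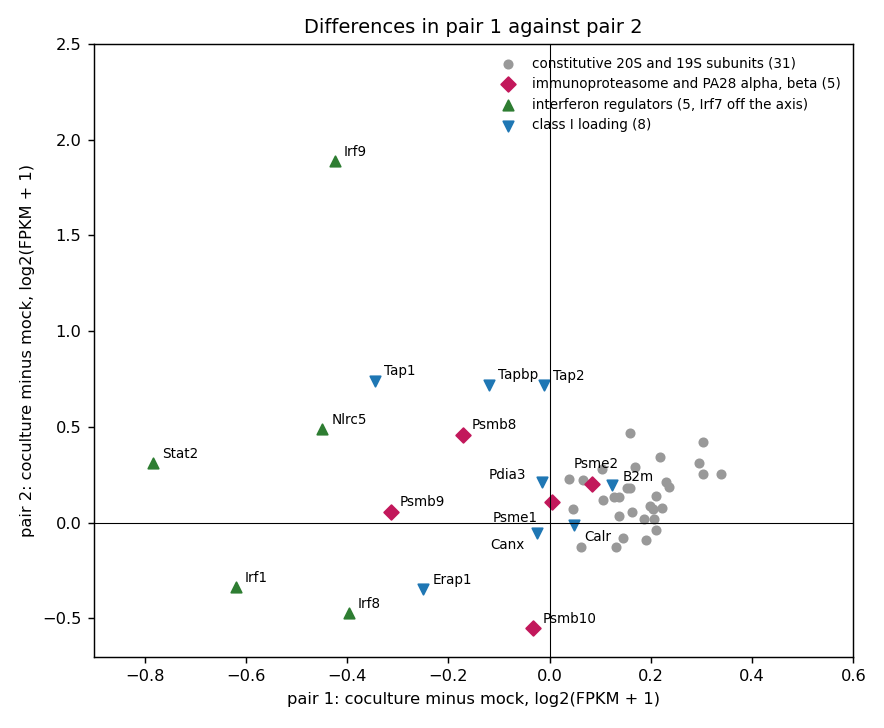
Difference in pair 1 (horizontal) against pair 2 (vertical), both coculture minus mock in log2(FPKM + 1), for the 31 constitutive subunits, the 5 immunoproteasome and PA28 genes, 5 interferon regulators and 8 class I loading genes; Irf7 (-0.17 and 4.42) lies outside the axis. Constitutive subunits lie right of 0, and Psmb8 and Psmb9 lie upper left together with Irf9, Nlrc5, Stat2, Tap1, Tapbp, Tap2 and Pdia3.

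Genes that build and supply the proteasome were followed as whole lists, and none of their genes passed the test. Of 6 further assembly factors, 5 were in both tables; Pomp, the maturation factor, stood at 179 then 197 FPKM in pair 1 and 171 then 189 FPKM in pair 2 (0.14 ± 0.11, limma adjusted p = 0.602), and the other 4, Psmg1 to Psmg4, went opposite ways in the pairs. In the bounce-back pathway, which raises proteasome genes when proteasome activity is short, NRF1 (Nfe2l1) is the transcription factor and the protease DDI2 releases it. Nfe2l1 was higher in both pairs, at 43.9 then 51.8 FPKM in pair 1 and 42.4 then 63.3 FPKM in pair 2 (0.40 ± 0.14, limma adjusted p = 0.309). Ddi2 was lower in both, at 14.9 then 9.42 FPKM in pair 1 and 14.6 then 10.7 FPKM in pair 2 (-0.51 ± 0.14, limma adjusted p = 0.266). Ngly1, which strips sugars from NRF1, differed by 0.26 ± 0.16 (limma adjusted p = 0.507), and Nfe2l2, the NRF2 gene, by 0.05 in pair 1 and -0.53 in pair 2.

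Of the 13 genes of associated and shuttle factors, 4 were higher and 6 lower in both pairs, with a median of -0.06, close to that of all tested genes. Ubqln4 and Ubqln2, shuttles that carry ubiquitin-tagged proteins to the cap, were lower in both pairs, with differences of -0.32 ± 0.12 and -0.30 ± 0.13 (limma adjusted p = 0.334 and 0.372). Adrm1, a ubiquitin receptor of the cap, differed by 0.40 in pair 1 and 0.03 in pair 2 (limma adjusted p = 0.561).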

How the data were processed

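Messenger RNA libraries of RAW264.7 cells, 2 mock and 2 coculture, were analysed from the FPKM values that the authors deposited in 2 tables, 1 per replicate number. The tools named, per the submitters' processing notes, are Trim Galore, Subread and featureCounts, with the human build hg38, although the symbols are those of mouse. The sources used here give no versions, annotation or read length. Rows with no name (23 in the first table, at most 5.2e-06% of a library's FPKM) and 106 repeated names (at most 1.07%) were left out.

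Genes with at least 1 FPKM in 2 of the 4 libraries were tested on log2(FPKM + 1), which understates the change of low genes, in limma 3.58.1 (R 4.3.3; trended variance, two-sided, Benjamini-Hochberg over 10202 genes). The pair was a block, since each table may carry its own normalization; libraries of a pair deviated together (correlation 0.76). With 4 libraries this leaves 1 residual degree of freedom beside 3.43 prior ones; the script was tested on simulated data. Nothing in the labels makes the replicates separate cultures, so the p-values reflect a spread between libraries that may be technical.

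Depth was estimated from the commonest lowest value of FPKM times GENCODE M21 exonic length, taken as 1 read; 40.5% to 42.2% of values at 1 to 20 reads then fell within 0.1 of a whole number, so read counts are rough estimates. Shared 50-base stretches were counted in GENCODE M21 transcripts (Python 3.11.15, Biopython 1.88). The members, the 9 classes, the 5 lists of related genes and the marker lists were chosen with earlier results of these data known; 1 gene of the interferon list and a further list are not reported here. Members named with full values were the 5 immunoproteasome and PA28 genes, their 3 constitutive partners, and, among the other members of each class, the largest rise and fall with 1 sign in both pairs; each related list gave up to 3 genes by the same rule, and Nfe2l1, Pomp, Irf1, Irf7 and Tap1. All other members named, among them Psma6, Psmd8 and Psmd14, were picked with their values known. Alternatives tried were other pseudocounts, filters and scalings, no trend, no pair block, each library left out, and only members with under 10% shared stretches (added after the data were seen).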

Additional observations from a re-analysis of the deposited data

Results flagged for a closer look

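Psme2b, the copy of Psme2, has a row in the second table only and so entered no comparison. It was listed at 57.4 FPKM in mock 2 and at 100.7 FPKM in coculture 2, a difference of 0.80 on the log2(FPKM + 1) scale, and it is given because a signal above the mock level appears in a row the comparison does not use. In those libraries it stood 6.46 and 9.70 times above Psme2. The sum of both rows was 66.3 FPKM in mock 2 and 111 FPKM in coculture 2, a difference of 0.74 against 0.20 for Psme2 alone. With 1 library per group there is no test.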

How the results depend on the processing

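No member passed the test under any alternative; the lowest adjusted p of a member over all of them was 0.104 in limma. The 14 members named by rule kept the sign of their mean difference under the other pseudocounts, rescaling, median centring and quantile normalization. The remaining alternatives that keep the 4 libraries (other filters, no trend, no pair block) cannot change a mean difference, so they say nothing about its sign. The count of all genes called higher, 13, was 22 with a pseudocount of 0.1, 25 with at least 5 FPKM, 25 after rescaling to a common total, 85 after median centring, 43 after quantile normalization, 1 with no trended variance, and 0 with no filter. Those called lower, 0 in the main analysis, were 1 with at least 5 FPKM, 1 after rescaling, 18 after centring and 3 after quantile normalization. Without the replicate block, 1 gene was called higher and no member was.

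The median difference of all members, 0.13, was 0.078 after rescaling, 0.20 after centring, 0.051 after quantile normalization and 0.11 over members with under 10% shared stretches. Members lower in both pairs were 1 after centring. Those higher in both pairs were 17 of the 30 with under 10% shared stretches, against 29 of all 42. Each tested member left out by that limit was higher in both pairs. The median of the 5 immunoproteasome and PA28 genes, 0.06, was -0.13 over members with under 10% shared stretches, which leaves Psmb8, Psmb9 and Psmb10. The median of Psme3 and Psme4 turned to 0.056 after centring, and that of the 19S ATPases to -0.0052 after quantile normalization; the cause was not tested.

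Leaving out 1 library, unblocked and so across the 2 tables, gave 0 to 0 genes called higher. The median of all members then ranged from 0.019 (without coculture 1) to 0.23 (without coculture 2), that of the 31 constitutive subunits from 0.017 to 0.30, that of the 5 immunoproteasome and PA28 genes from -0.14 (without mock 2) to 0.10, that of Psmb8, Psmb9 and Psmb10 from -0.38 to 0.16, the 19S ATPases from -0.14 to 0.26, the 19S assembly chaperones from -0.15 to 0.074, and Psme3 with Psme4 from -0.10 to 0.084. Single genes that changed sign were Psmb8 (-0.14 to 0.42), Psmb9 (-0.42 to 0.16), Psmb10 (-0.64 to 0.058), Psme2 (-0.00045 to 0.29), Psmb4 (-0.067 to 0.51), Psmc1 (-0.011 to 0.36) and Psmd11 (-0.0082 to 0.64); Psmd10 stayed between 0.50 and 0.88, Psmb5 between 0.053 and 0.67 and Psmb6 between 0.0045 (without coculture 1) and 0.30. Differences of a few percent are near the counting error of the least covered members.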
